A study of Homo sapiens with 4 samples.

Results

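The canonical Wnt pathway core was examined as 10 genes chosen by name, CTNNB1, AXIN1, AXIN2, APC, LRP5, LRP6, TCF7, LEF1, TCF7L1 and TCF7L2, out of 17217 genes that could be named on the array. Probes were assigned to a gene through the RefSeq accession in the probe name. This gave 33 probes in 11 targets, a target being the set of 3 probes designed on the same transcript. AXIN1 had 2 targets and each of the other 9 genes had 1. The samples were 4 biological replicates of untreated HEK293 cells, an immortalized line that was derived from embryonic kidney and carries adenovirus DNA, and each replicate was a separate plate with its own RNA extraction. Cells were grown in DMEM with fetal bovine serum, penicillin and streptomycin, and RNA levels were read in a single colour (Cy3). There was 1 group, so the question for each gene was whether its message lay above a detection baseline set by control genes.

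In canonical Wnt signaling the transcriptional coactivator β-catenin, the product of CTNNB1, is continually marked for destruction by a cytoplasmic complex built on the scaffolds AXIN1, AXIN2 and APC. A Wnt ligand bridges a frizzled receptor and a co-receptor, LRP5 or LRP6, which draws the axin scaffold to the membrane and lets β-catenin accumulate and enter the nucleus. There it binds the DNA-bound factors TCF7, LEF1, TCF7L1 and TCF7L2, which otherwise hold target genes silent together with corepressors. AXIN2, LEF1 and TCF7 are themselves widely used as target genes of the pathway. HEK293 cells are often used for Wnt reporter assays.

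TCF and LEF factors bind DNA at a short motif, and the promoters of their own genes are shown here because these genes are both members of the pathway and possible targets of it. The 250 bases before the annotated start were taken from RefSeq (GRCh38.p14), which listed 12 such promoters for 8 of the 10 genes. AXIN2 and LRP6 were not matched. The motif searched was CTTTG followed by 2 bases that are each A or T, on both strands. SOX factors recognise a core of nearly the same letters. A match was present in 2 of the 12 promoters (16.7%), against 4199 of 35116 promoters in the whole table (12.0%). The matches were at position -50 of a TCF7 promoter and at position -133 of the second of 3 TCF7L2 promoters. The other TCF7 promoter, the other TCF7L2 promoters and those of LEF1 and TCF7L1 had none. Each promoter is written 5′ to 3′ along the gene, with the match in capitals.
TCF7 (chr5:134123368-134123617, plus strand): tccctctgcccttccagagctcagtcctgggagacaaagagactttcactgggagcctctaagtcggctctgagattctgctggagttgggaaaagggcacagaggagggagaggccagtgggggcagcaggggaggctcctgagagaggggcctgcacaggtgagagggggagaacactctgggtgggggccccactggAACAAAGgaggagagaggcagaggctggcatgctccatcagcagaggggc
TCF7L2 (chr10:113126383-113126632, plus strand): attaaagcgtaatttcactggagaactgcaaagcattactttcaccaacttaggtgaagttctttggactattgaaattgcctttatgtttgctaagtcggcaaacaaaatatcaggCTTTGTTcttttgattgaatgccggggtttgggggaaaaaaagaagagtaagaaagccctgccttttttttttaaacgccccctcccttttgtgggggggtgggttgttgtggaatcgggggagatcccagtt
LEF1 (chr4:108166302-108166551, minus strand): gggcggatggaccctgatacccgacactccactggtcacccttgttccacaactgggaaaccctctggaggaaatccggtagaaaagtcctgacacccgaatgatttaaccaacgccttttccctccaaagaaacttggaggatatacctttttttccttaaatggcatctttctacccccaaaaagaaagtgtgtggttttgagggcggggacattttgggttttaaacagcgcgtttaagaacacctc
In TCF7 the match reads CTTTGTT on the opposite strand. A match describes these letters only, and no binding was measured on the arrays.

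The detection baseline followed the study's rule. Seminal protein genes served as controls, since the study took them to be genes the line would hardly use. Their mean plus 2 SD was taken array by array as the baseline, and the log2 level of a gene minus this baseline is its distance. The study took the control mean as zero expression and this baseline as its threshold of significance. A gene below the baseline can therefore still lie above the control mean. Detected means here that the distances averaged over replicates came out positive. The baselines of replicates 1 to 4 were 9.47, 9.94, 10.69 and 10.32 log2 units. The baseline was lowest on replicate 1 and highest on replicate 3, which moves the distances of all genes on an array together. Among the controls, SPATA5 and SPATA13 had mean levels of 9.97 and 9.72, and the others 6.53 to 7.25. Without SPATA5 and SPATA13 the mean baseline over the arrays was 7.78 log2 units, against 10.10 with them. Probes differ in affinity, so distances of different genes do not rank their transcripts by abundance, and no order of the genes by level is given. Replicates 1 and 3 (r = 0.971) and replicates 2 and 4 (r = 0.977) resembled each other over all genes more than the other pairs of arrays did (r = 0.949 to 0.959). Of the marker genes, limma called 3 of 4 neuronal cytoskeleton genes and 1 of 5 renal lineage genes above the baseline, and none of 7 T cell, 3 B cell, 4 endothelial or 4 fibroblast genes, against 45.9% of all genes. By the mean distance, 1 endothelial and 1 fibroblast gene were detected and no T or B cell gene. None of the renal genes was above the baseline on all 4 arrays.

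Messages for 9 of the 10 core genes were detected, and APC was the exception. The same 9 genes lay above the baseline on all 4 arrays, and limma, tested one-sided with Benjamini-Hochberg adjustment over all named genes, called each of them. Among all 17217 genes 52.7% were detected, 45.0% lay above the baseline on all 4 arrays and 45.9% were called above it by limma. The median distance was 2.17 log2 units over the 10 core genes and 0.26 over all genes. Each array taken alone gave a count of 9, and so did each fit without 1 replicate. Of the 33 core probes, 25 had a mean distance above 0 and 22 were above the baseline on all 4 arrays, against 47.6% and 38.3% of the probes of all named genes. The 9 detected genes lay above all 10 matched control genes on every array. This is no separate support, since the baseline was set from the same controls. The highest of them, SPATA5 on replicate 3, reached 0.044 above it.

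**Figure D1:**
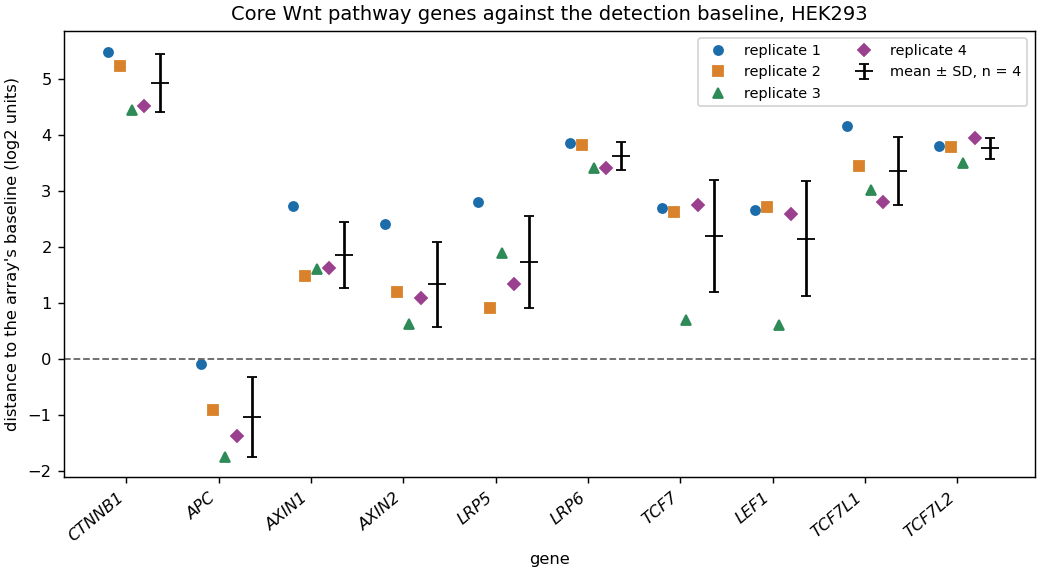
Distance of each core gene to the baseline of the array, in log2 units, with 1 point per replicate and the mean ± SD of the 4 arrays beside them. The points of APC lie below 0 on all 4 arrays and those of the other 9 genes above 0, and the points of TCF7 and LEF1 on replicate 3, at 0.69 and 0.61, are apart from those of the other arrays.

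CTNNB1, which encodes β-catenin, had log2 levels of 14.97, 15.18, 15.14 and 14.85 on replicates 1 to 4. The arrays lay within 0.33 log2 units of each other. Its mean distance to the baseline was 4.93 ± 0.52 log2 units (SD, n = 4 arrays). All 3 of its probes were above the baseline on all 4 arrays, with mean levels of 15.22, 15.39 and 14.25. The probe means spanned 1.14 log2 units, the narrowest span among the 11 core targets, against a median of 3.12 for those targets and 1.48 for all named targets.

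Both co-receptors were detected. LRP6 had levels of 13.33, 13.76, 14.11 and 13.73 on replicates 1 to 4, and its mean distance was 3.63 ± 0.25 (SD, n = 4). Each of its 3 probes was lowest on replicate 1 and highest on replicate 3, and all were above the baseline on every array. LRP5 had levels of 12.29, 10.85, 12.59 and 11.66, a spread of 1.74 log2 units that was the widest among the core genes. Its mean distance was 1.74 ± 0.82 (SD, n = 4, limma adjusted p = 1.0e-06). Replicate 2 gave the lowest value of LRP5 in each of its 3 probes. The middle probe of LRP5 lay above the baseline on replicate 1 only, by 1.05, and stood at -1.90 on replicate 2, while the other probes were above it on all 4 arrays.

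The scaffolds of the destruction complex did not give the same picture as each other. AXIN1 had levels of 12.20, 11.42, 12.29 and 11.95 on replicates 1 to 4, with a mean distance of 1.86 ± 0.58 (SD, n = 4, limma adjusted p = 1.9e-07). Its value averages 2 targets made on different AXIN1 transcripts. The first target stood at 1.34, -0.04, 0.40 and 0.17 above the baseline on replicates 1 to 4, a mean of 0.47 ± 0.61 (SD, n = 4). The second stood at 4.12, 3.01, 2.80 and 3.08, a mean of 3.25 ± 0.59 (SD, n = 4). The lowest value of the second target was above the highest of the first, and transcript and probe affinity cannot be told apart. Single probes were not separated in this way. Their mean levels were 9.51, 11.03 and 10.70 in the first target and 14.31, 13.21 and 10.58 in the second, so the last probe lay within the range of the first target.

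AXIN2 had levels of 11.89, 11.13, 11.32 and 11.42 on replicates 1 to 4. Replicate 1 was the highest and replicate 2 the lowest. The mean distance was 1.33 ± 0.76 (SD, n = 4, limma adjusted p = 1.9e-04), the smallest among the 9 detected genes. It rested on a single bright probe, which had a mean level of 12.67 and was above the baseline on all 4 arrays. The other probes had mean levels of 10.08 and 9.20 and stood at -0.03 and -0.90 from the baseline on average. With the brightest probe of every target left out, AXIN2 stood at 0.25 (limma adjusted p = 0.526), and with the median of the probes at 0.28 (limma adjusted p = 0.473). On replicate 2, 1 of 364 olfactory receptor genes lay above AXIN2, and none did on the other arrays.

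APC had levels of 9.38, 9.02, 8.94 and 8.94 on replicates 1 to 4, and the arrays lay within 0.44 log2 units of each other. Its distances were -0.09, -0.91, -1.75 and -1.38, a mean of -1.03 ± 0.72 (SD, n = 4). The limma test placed it below the baseline with an adjusted p of 0.0043, as it did 41.0% of all genes, and the adjusted p was 0.052 without replicate 4. Of its 3 probes, 2 were below the baseline on all 4 arrays, and the other was above it on replicate 1 only, by 0.72. APC nevertheless lay above nearly all olfactory receptor genes, a second set of controls, since 1, 5, 3 and 5 of 364 such genes were above it on replicates 1 to 4. On replicates 2 to 4 it lay below 2 of the 10 control genes, SPATA5 and SPATA13, and on replicate 1 below none. The call for APC turned with the control genes. With olfactory receptor genes as controls it stood 1.05 above the baseline (limma adjusted p = 4.2e-04), and without SPATA5 and SPATA13 among the seminal genes 1.29 above it (limma adjusted p = 2.3e-05). Those baselines also raised the share of all genes detected, to 71.4% and 74.0%.

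**Figure D2:**
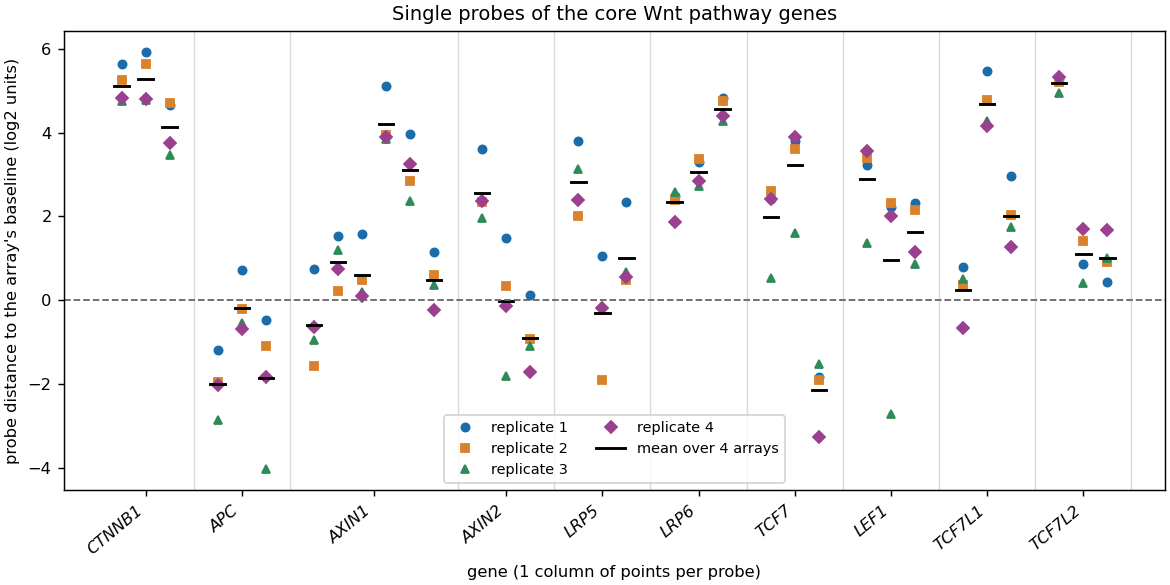
Distance of each of the 33 core probes to the baseline of the array, in log2 units, with 1 column of points per probe, 1 point per replicate and a bar at the mean of 4 arrays. The first 3 columns of AXIN1 belong to 1 transcript and the last 3 to another, and the last column of TCF7 lies below 0 on all 4 arrays.

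All 4 DNA-binding factors of the TCF/LEF family were detected. TCF7L2, also known as TCF4, had levels of 13.27, 13.73, 14.19 and 14.28 on replicates 1 to 4. Its mean distance was 3.77 ± 0.19 (SD, n = 4), the smallest SD of a distance among the core genes. Each of its 3 probes was lowest on replicate 1 and highest on replicate 4. The probe means were 15.29, 11.21 and 11.11, and without the brightest probe the distance was 1.65 (limma adjusted p = 1.9e-04). TCF7L1, often described as the repressor of the family, had levels of 13.64, 13.39, 13.71 and 13.13, with a mean distance of 3.36 ± 0.60 (SD, n = 4). Each of its 3 probes was lowest on replicate 4 and highest on replicate 3, and without the brightest probe it stood at 1.97 (limma adjusted p = 3.8e-05).

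TCF7 and LEF1 are best known from T cell development. TCF7 had levels of 12.17, 12.56, 11.38 and 13.08 on replicates 1 to 4, and LEF1 had 12.13, 12.66, 11.30 and 12.92. Both genes were lowest on replicate 3 and highest on replicate 4. The mean distances were 2.19 ± 1.00 for TCF7 (SD, n = 4, limma adjusted p = 7.7e-10) and 2.15 ± 1.03 for LEF1 (SD, n = 4, limma adjusted p = 1.7e-09). These SDs were the largest among the core genes. All 7 T cell markers examined were called below the baseline by limma, at -3.63 to -1.62.

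The probes of TCF7 and LEF1 differed in what they contributed. The first and second probes of TCF7 had mean levels of 12.10 and 13.33 and were above the baseline on all 4 arrays. The remaining probe had a mean level of 7.97 and was below it on all 4 arrays, and its highest level, 9.17, was on replicate 3, where the others were lowest. The span of 5.36 log2 units between the TCF7 probes was the widest among the core targets. For LEF1 the first and last probes were above the baseline on all 4 arrays. The second had levels of 11.70, 12.25, 7.97 and 12.34, so that it fell below the baseline on replicate 3 alone, by 2.72.

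The arrays were not equal for the core genes, and no label of the samples separates them. Before the baseline was subtracted, AXIN1, LRP5 and TCF7L1 were higher on replicates 1 and 3 than on either of replicates 2 and 4, a pattern of 22.2% of all genes. TCF7 and LEF1 were higher on replicates 2 and 4 than on either of replicates 1 and 3, a pattern of 18.5% of all genes. APC was higher on replicates 1 and 2 than on 3 and 4, and TCF7L2 the other way round, which were patterns of 18.3% and 25.0% of all genes. Replicates 1 and 2 shared their distribution of values, as did replicates 3 and 4, and the part this had in the last patterns was not tested. The distance of TCF7 averaged 1.69 over replicates 1 and 3 and 2.69 over replicates 2 and 4. That of LEF1 averaged 1.64 and 2.66 in the same order, and that of LRP5 2.36 and 1.13. The median SD of the level over the 4 arrays was 0.36 log2 units for the core genes and 0.42 for all genes.

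**Figure D3:**
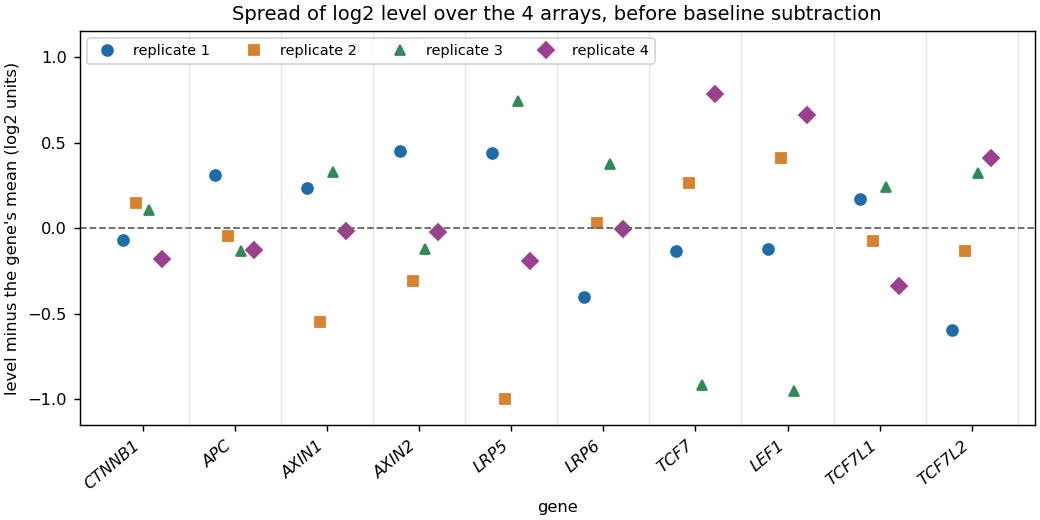
Log2 level of each core gene on each array minus the mean of that gene over the 4 arrays, before the baseline was subtracted. TCF7 and LEF1 show the same order of arrays, with replicate 3 lowest and replicate 4 highest, while LRP5 is lowest on replicate 2.

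The rest of the pathway was then set against the same baseline through 9 lists that held 100 genes, of which 99 were matched. Of these 53 were detected, and limma called 47 above the baseline and 39 below it, which is near the shares over all genes (52.7%, 45.9% and 41.0%). The median distance over the 99 genes was 0.50 log2 units. The lists differed in how many members were detected, with the cytoplasmic and nuclear lists on the high side and the secreted ones on the low side.

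Among cytoplasmic partners of the destruction complex, 13 of 15 genes were called above the baseline (against 45.9% of all genes) and 2 below (against 41.0%). Genes for GSK3 and casein kinase 1 enzymes, kinases that act within the pathway, were among the former, with GSK3A at 4.74 ± 0.34, CSNK1E at 4.39 ± 0.56, CSNK1D at 4.32 ± 0.35 and, named after its value was seen, GSK3B at 4.00 ± 0.48 (SD, n = 4 for each). Also named after their values were seen, the dishevelled genes DVL2 and DVL3, which relay the signal from frizzled receptors, stood at 3.54 ± 0.40 and 3.85 ± 0.62 (SD, n = 4 for each). The dishevelled gene DVL1 stood lower, at 1.43 ± 0.75, as did the casein kinase 1 gene CSNK1A1, at 1.57 ± 0.69 (SD, n = 4 for each). Both were likewise named after their values were seen. The genes below the baseline were AMER1, which tethers APC to the membrane, at -0.83 ± 0.32 (limma adjusted p = 0.023, and 0.052 without replicate 3 and 0.057 without replicate 4), and APC2, the paralog of APC, at -1.99 ± 0.24 (SD, n = 4 for each). APC and these partners of it were therefore below the baseline on all 4 arrays. With olfactory receptor genes as controls AMER1, like APC, was called above the baseline, at 1.25 (limma adjusted p = 6.7e-05). APC2 stood at 0.09 with those controls and was not called above the baseline (limma adjusted p = 0.517).

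Of the 19 Wnt ligand genes, 1 was called above the baseline (against 45.9% of all genes), 14 below (against 41.0%) and 4 in neither direction. The gene above was WNT5B, at 1.45 ± 0.43 log2 units (SD, n = 4). WNT5A, named after its value was seen, stood at 0.69, 1.75, -1.06 and 0.70 on replicates 1 to 4 (mean 0.52, limma adjusted p = 0.145). Without replicate 3 its mean was 1.05 (limma adjusted p = 0.0061), and without replicate 2 it was 0.11. Both genes for ligand secretion were above the baseline, with PORCN, which attaches the lipid to Wnt proteins, at 1.78 ± 0.56 and WLS, which carries them to the surface, at 2.65 ± 1.03 (SD, n = 4 for each). Among 15 extracellular inhibitors, 1 was called above the baseline (against 45.9% of all genes) and 10 below (against 41.0%). The former was the secreted frizzled-related protein gene SFRP1, at 1.29 ± 0.73 (SD, n = 4).

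The frizzled receptors, which bind the ligands together with LRP5 or LRP6, had 5 of 10 genes called above the baseline and 5 below, near the shares over all genes (45.9% and 41.0%). Their median distance was -0.22 log2 units.

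**Figure D4:**
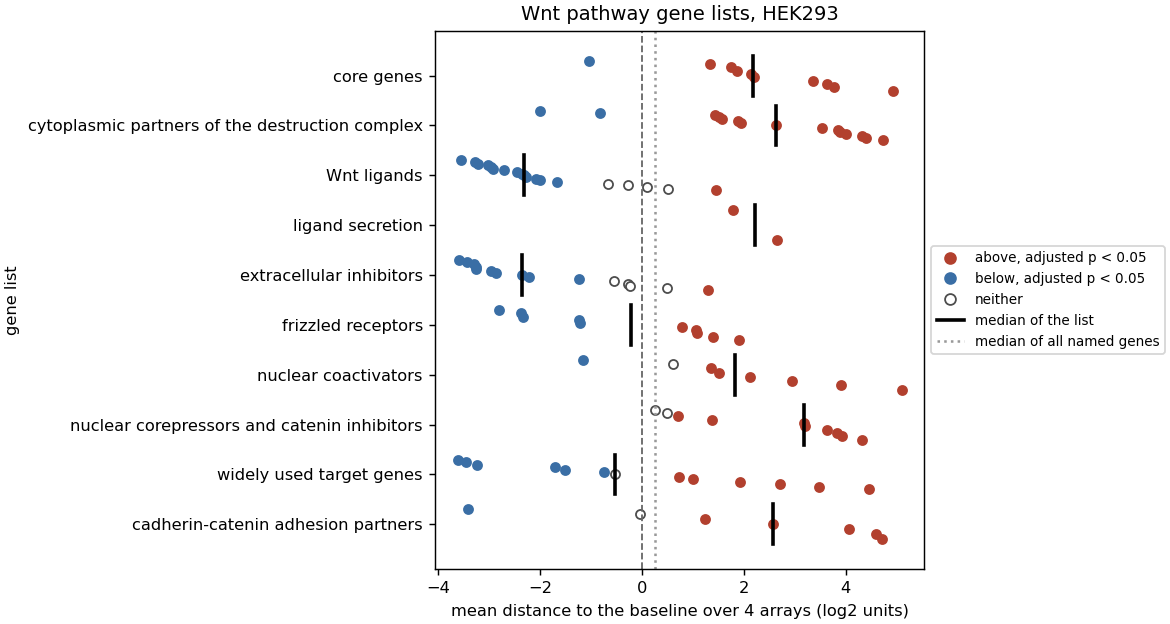
Mean over the 4 arrays of the distance to the baseline for the core genes and 9 further lists of pathway genes, in log2 units, with 1 point per gene, filled by the limma call and stacked by rank within its list. The median of the core genes is 2.17, those of the Wnt ligands and extracellular inhibitors are -2.32 and -2.35, and the median of all named genes is 0.26.

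In the nucleus, 6 of 8 coactivator genes were called above the baseline (against 45.9% of all genes) and 1 below (against 41.0%). SMARCA4, the ATPase of a chromatin remodelling complex, stood at 5.11 ± 0.62, the PHD finger protein gene PYGO2 at 3.91 ± 0.54, the acetyltransferase gene EP300 at 2.95 ± 0.72 and PYGO1 at 1.51 ± 0.22 (SD, n = 4 for each). BCL9L, which links β-catenin to the pygopus proteins, lay below at -1.16 ± 0.93 (SD, n = 4, limma adjusted p = 0.0013), and without replicate 2 it stood at -0.76 (limma adjusted p = 0.101). BCL9, of the same list, stood at 0.61 ± 0.51 and was called in neither direction (SD, n = 4, limma adjusted p = 0.088). Of 10 corepressor and catenin inhibitor genes, 8 were called above the baseline (against 45.9% of all genes) and none below (against 41.0%). They included CHD8 at 4.32 ± 0.79, CTBP2 at 3.93 ± 0.81 and CTBP1 at 3.84 ± 0.73 (SD, n = 4 for each). The Groucho family genes TLE5 at 3.62 ± 0.33, TLE1 at 3.19 ± 0.57 and TLE3 at 3.18 ± 0.61 were also among them (SD, n = 4 for each).

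Of the widely used target genes, 6 of 13 matched genes were called above the baseline and 6 below, near the shares over all genes (45.9% and 41.0%). MYC stood at 4.45 ± 1.13, CCND1 at 3.48 ± 0.79 and LGR5 at 2.71 ± 0.68 (SD, n = 4 for each). Their distances were lowest on replicate 3, where the baseline was highest, and highest on replicate 2. Before the baseline was subtracted, the levels of MYC and CCND1 were lowest on replicate 1 and that of LGR5 on replicate 3. The level of MYC was highest on replicate 4, and those of CCND1 and LGR5 on replicate 2. Feedback genes of the pathway, named after their values were seen, did not share a direction. RNF43 stood at 1.00 ± 0.88 (limma adjusted p = 0.0051, and 0.0502 without replicate 2), NKD1 at -0.54 ± 0.41 (limma adjusted p = 0.149) and SP5 at -3.44 ± 0.40 (SD, n = 4 for each).

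β-Catenin also links cadherins to the cytoskeleton at cell junctions, so its message serves adhesion as well as signaling. Of 7 cadherin and catenin genes, 5 were called above the baseline (against 45.9% of all genes) and 1 below (against 41.0%). CTNNA1, the α-catenin gene, stood at 4.72 ± 0.59, the N-cadherin gene CDH2 at 4.59 ± 0.73 and the plakoglobin gene JUP at 4.07 ± 0.43 (SD, n = 4 for each).

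The calls of the core genes were then compared over other baselines and probe summaries. CTNNB1, LRP6, TCF7, TCF7L1 and TCF7L2 were called above the baseline by limma under every alternative run. With a baseline of 3 SD the distances of AXIN1, AXIN2, LRP5 and LEF1 were 0.54, 0.02, 0.43 and 0.83 and no longer passed the test, while 39.1% of all genes were detected.

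**Figure D5:**
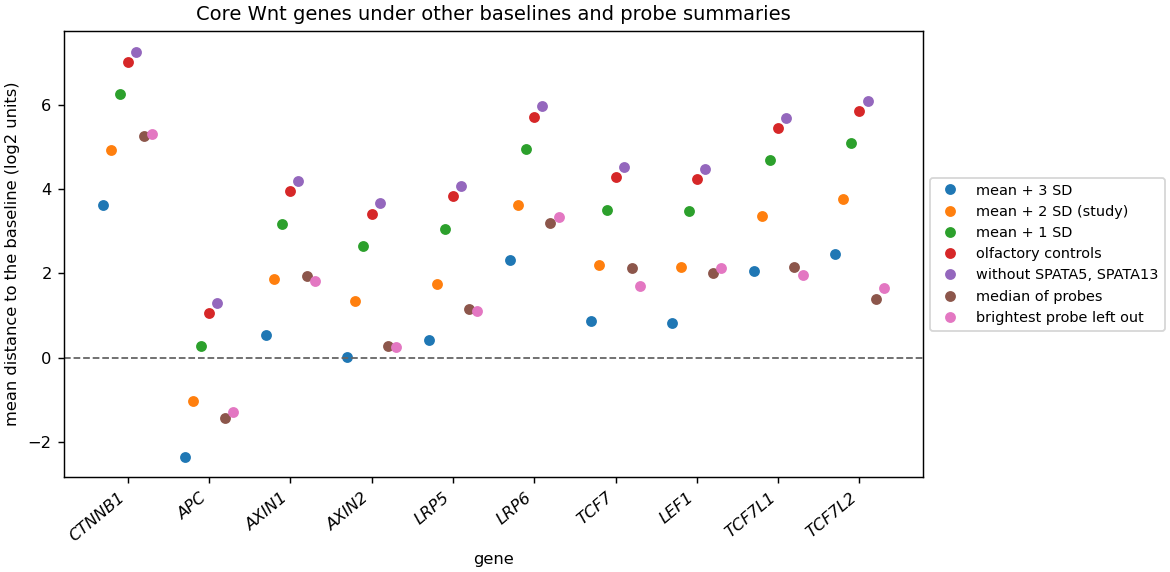
Mean over the 4 arrays of each core gene's distance to the baseline, in log2 units, under the study's rule and 6 alternatives, with 1 colour per setting. APC is below 0 in 4 of the 7 settings and AXIN2 comes nearest to 0 among the other genes, at 0.02 with a baseline of 3 SD.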

How the data were processed

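Total RNA of 4 HEK293 cultures was copied into double-stranded cDNA with an oligo(dT) primer, and the cDNA was used to make Cy3-labelled DNA. This was hybridised in a single colour to NimbleGen arrays of 60-mer probes designed on HG18. The authors deposited 1 log2 intensity per probe and array. The submitters' processing notes name RMA, and the step it was used for is not given in the sources used here. When the arrays were sorted, replicates 1 and 2 coincided to 0.01 at 99.97% of ranks and replicates 3 and 4 at 99.99%, against 1.23% to 1.25% for other pairs, so the former share a distribution pair by pair. No scanner intensities were used, so background and saturation of spots were not examined, and the number of arrays limits the precision.

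The table held 71998 probes in 24000 targets, of which 19125 were matched without version to RefSeq genes of GRCh38.p14, used for names. The probes of a target were averaged on the linear scale and then taken to log2, and targets of a gene were averaged. Of 11 seminal control genes 10 were matched. Distances to the baseline (control mean plus 2 SD) were tested against 0 with limma 3.58 in R 4.3, one-sided in each direction, with Benjamini-Hochberg adjustment at 0.05 over all 17217 genes. The prior degrees of freedom were infinite, so every gene took a standard error of 0.351, and the error of each array's own baseline was left out. The smallest one-sided p of an exact sign-flip test with 4 arrays is 0.0625. The code was tested on simulated data. Figures were drawn with matplotlib 3.10.

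Members and lists were chosen with earlier results of these data known. The rule for named genes took the members, the control genes, the 3 largest distances of a list among genes above the baseline on all 4 arrays, genes within 1 standard error of the baseline, and lists of 10 or fewer genes. Not all of these are printed, and the rest are given by count. ZNRF3 was listed and not matched.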

Additional observations from a re-analysis of the deposited data

Results flagged for a closer look

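The 86 sets of 4 array values examined were distances of core and other named pathway genes, and levels of core genes and their probes. DVL1, CSNK1A1, NKD2 and BCL9 were not among them. In 5 sets the gap from highest or lowest array to its neighbour, as a share of the range, exceeded Dixon's critical value for 4 values. About 1 in 20 such sets would do so by chance. TCF7 stood apart on replicate 3, with a distance of 0.69 where the other arrays gave 2.63 to 2.76 (share 0.936). LEF1 did so on the same array, with 0.61 where the other arrays gave 2.60 to 2.73 (share 0.938). AXIN1 stood apart on replicate 1, with 2.73 where the other arrays gave 1.48 to 1.62 (share 0.886). The baseline was highest on replicate 3 and lowest on replicate 1, and the levels of these genes before subtraction did not pass the critical value. The third CTNNB1 probe reached a level of 14.64 on replicate 2, where the other arrays gave 14.08 to 14.15 (share 0.877). The second LEF1 probe dropped to a level of 7.97 on replicate 3, where the other arrays gave 11.70 to 12.34 (share 0.853). No baseline enters the probe levels, and the part of the baseline in the flagged distances was not tested.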

How the results depend on the processing

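The count of 9 detected core genes became 10 under the lower baselines (1 SD, no SPATA5 and SPATA13, or olfactory receptor controls) and stayed 9 under every other alternative run. The count of 53 other pathway genes ran from 39 with 3 SD to 75 without SPATA5 and SPATA13. Leaving out the brightest probe and counting by limma were chosen after the data had been examined. For the core genes 187 alternative distances kept their direction and side of the threshold, 9 lost significance and 3 changed sign. APC stood at 0.28 with 1 SD (limma adjusted p above the baseline = 0.31), 1.29 without SPATA5 and SPATA13 and 1.05 with olfactory receptor controls. It lost significance at -0.50 on replicates 1 and 2 alone (adjusted p = 0.345) and -0.92 on replicates 1 and 3 alone (adjusted p = 0.189), and ranged from -1.35 to -0.79 when 1 replicate was left out, with -0.92 and an adjusted p of 0.052 without replicate 4. With 3 SD the adjusted p was 0.241 for AXIN1 at 0.54, 1.0 for AXIN2 at 0.016, 0.392 for LRP5 at 0.43 and 0.051 for LEF1 at 0.83. AXIN2 stood at 0.28 with the median of the probes and 0.25 without the brightest probe. AXIN1 stood at 3.22 with its highest target alone. The cause was not tested.

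Alternatives were not run for DVL1, CSNK1A1, NKD2 and BCL9. Among the other pathway genes named, AMER1, BCL9L and NKD1 changed sign when the baseline was lowered, and SP5 stayed below it. APC2 changed sign without SPATA5 and SPATA13 and with olfactory receptor controls, but not with 1 SD. With 1 SD, without SPATA5 and SPATA13, and with olfactory receptor controls, AMER1 stood at 0.49, 1.50 and 1.25, BCL9L at 0.15, 1.16 and 0.92, and NKD1 at 0.78, 1.79 and 1.55. APC2 stood at -0.68 with 1 SD and was no longer called below the baseline (limma adjusted p = 0.064). It stood at 0.33 without SPATA5 and SPATA13 and at 0.089 with olfactory receptor controls, and was called above neither baseline (limma adjusted p = 0.156 and 0.517). With 3 SD, WNT5A stood at -0.80, SFRP1 at -0.028 and RNF43 at -0.31. WNT5A was also negative, at -0.18, on replicates 3 and 4 alone and on replicates 1 and 3 alone, and was called above the baseline on replicates 1 and 2 alone and on replicates 2 and 4 alone, at 1.22 in each, and under the lower baselines, at 1.84, 2.85 and 2.60. AMER1 was not called below the baseline on replicates 1 and 2, 1 and 3, or 2 and 4 alone, with adjusted p from 0.090 to 0.117. BCL9L was not called with the median of the probes (-0.76, adjusted p = 0.081) or on replicates 1 and 3 alone (-0.43, adjusted p = 0.583). No paired analysis was possible because the design holds a single group. APC did not enter the fit limited to genes above the median level.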
